A study of Homo sapiens with 3 samples.

Results

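The 10 genes of the TNF and NF-kB pathway described here were TNF, NFKB1, NFKB2, RELA, RELB, NFKBIA, NFKBIE, NFKBIZ, TNFAIP3 and BIRC3, listed by name among the 29689 gene symbols of the deposited table. RNAseq was performed on 3 xenograft tumors of SUM-149, a human TNBC cell line, grown with Matrigel in the mammary fat pads of female Nu/Nu mice. The labels describe 1 mock-treated tumor (vehicle), 1 tumor treated for 10 days with the CDK2 inhibitor dinaciclib (CDK2i), and 1 tumor treated for 10 days with the EZH2 inhibitor EPZ6438 (EZH2i). The comparisons ask how the transcript levels of a human breast tumor differ after inhibition of either enzyme. For SUM-149 xenograft growth the study's legends name another EZH2 inhibitor, GSK343, so the drug given here follows the sample label. Dinaciclib acts on other cyclin-dependent kinases besides CDK2. Nu/Nu mice lack mature T cells but keep macrophages, NK cells and B cells. With 1 library for each condition no value had a replicate, no p-value was computed, and the effect of an inhibitor and the difference between single tumors cannot be told apart.

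TNF is a cytokine that signals through its receptors to the IkB kinase complex. The kinase marks IkB proteins for degradation, which frees dimers of RELA, RELB, REL and the processed products of NFKB1 and NFKB2 to enter the nucleus and bind DNA. NFKBIA, NFKBIE, TNFAIP3 and BIRC3 are themselves targets of these dimers. Through NFKBIA, NFKBIE and TNFAIP3 induced NF-kB makes its own inhibitors, and tumors of the basal type often carry NF-kB activity. The table measures transcripts and not the location or activity of the proteins.

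The values were log2 FPKM, that is fragments scaled to gene length and library size, with −9 listed in place of 0. From the step that 1 fragment makes in weakly expressed genes, the libraries held about 16.8 M fragments (vehicle), 19.1 M (CDK2i) and 17.5 M (EZH2i). The 95% intervals below are exact intervals of the ratio of the approximate fragment numbers and cover counting error only. A gene counted as past the thresholds where its fold was above 2 and the higher of the 2 values was above 8 FPKM. Genes counted as expressed where their mean log2 FPKM exceeded 1 without any −9, and over these 11109 genes the median difference from vehicle was −0.11 (log2) for CDK2i and 0.19 for EZH2i. Each treated tumor was compared with the same vehicle tumor, so a deviation of that tumor enters both changes. The epithelial markers of the tumor cells were expressed for 9 of 9 genes, with summed levels of 6515 FPKM in vehicle, 15480 after CDK2i and 6275 after EZH2i. Most of this sum came from the basal keratin genes KRT5, KRT6A, KRT14 and KRT17, with log2 changes of 1.17 to 1.35 in CDK2i, while the other 5 markers, EPCAM and CDH1 among them, had changes of 0.16 to 0.51. Of 11 macrophage and other leukocyte markers 2 were expressed, with summed levels of 11.9, 11.2 and 5.79 FPKM. PTPRC, the pan-leukocyte gene CD45, was at 0.0224 FPKM (vehicle) and 0.0196 FPKM (CDK2i) and was listed at 0 for EZH2i. Of 8 fibroblast and endothelial markers 2 were expressed, with sums of 20.3, 29.6 and 22.3 FPKM. The host leukocytes, fibroblasts and vessels of such a xenograft are mouse cells, while the reads were aligned to the human genome. The levels of these human leukocyte, fibroblast and endothelial markers therefore do not measure the host cells, and the origin of their reads was not tested. In such bulk tumor RNA, fewer cells of a type and less RNA per cell cannot be told apart.

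TNF, the only cytokine among the 10 genes, was the member with the largest difference. It lies on the plus strand of chromosome 6, at chr6:31543342-31546113 of GRCh37, and its level was 1.67 FPKM in vehicle, 17.0 after CDK2i and 5.38 after EZH2i. The 3 tumors were well apart, with the CDK2i tumor highest and the vehicle tumor lower than both others. About 47, 545 and 158 fragments stand behind these levels. TNF was 10.2-fold higher in CDK2i than in vehicle (log2 change 3.34, interval 2.92 to 3.81). This ranked it 11 among the 6632 genes above the expression minimum in that comparison, a minimum that TNF reached only in CDK2i. In EZH2i it was 3.22-fold higher (1.69, interval 1.21 to 2.19), but its level stayed below 8 FPKM in both tumors and it could not be counted there. Set directly against CDK2i, the EZH2i tumor had a log2 difference in TNF of −1.66 (interval −1.92 to −1.40). In the vehicle tumor 1.19% of the expressed genes had a lower level than TNF, but this share is largely set by the filter. Expressed genes needed a mean log2 FPKM above 1 over the 3 libraries. TNF was at 0.74 in vehicle and entered the set through the treated tumors.

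**Figure D1:**
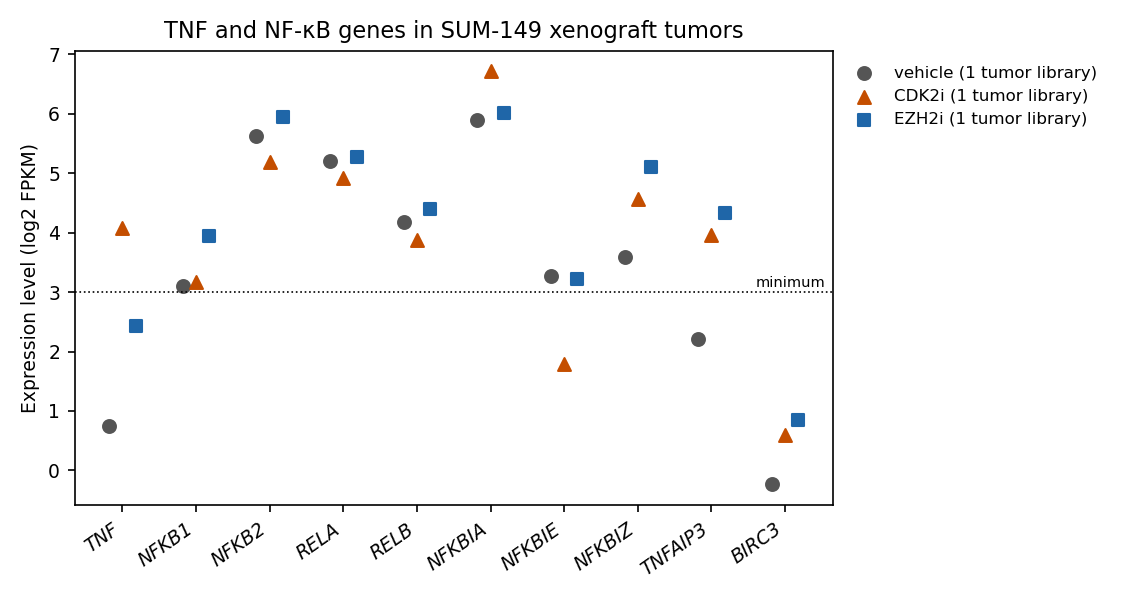
Level of each of the 10 genes in log2 FPKM (y axis) in the vehicle, CDK2i and EZH2i tumor, 1 point for each library and with no error bar, since no condition had a replicate. All 3 points of BIRC3, the vehicle and EZH2i points of TNF, the vehicle point of TNFAIP3 and the CDK2i point of NFKBIE lay below the dotted line at the expression minimum of log2 FPKM 3.

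In CDK2i against vehicle, 9 of the 10 genes had a level above the minimum. Among them, 2 (TNF and TNFAIP3) were past the thresholds and higher in CDK2i, where 3.27% of all genes tested were, and 1 (NFKBIE) was lower, where 8.07% were. TNF and TNFAIP3 were below the minimum in vehicle and NFKBIE in CDK2i, so each reached it only through the tumor where it was higher. In EZH2i against vehicle 8 genes reached the minimum, and 2 (NFKBIZ and TNFAIP3) were higher, against 8.93% of all genes tested. TNFAIP3 reached the minimum there only through EZH2i. None was past the thresholds and lower in EZH2i, where 4.42% of all genes were. Between the treated tumors, 1 of 9 genes was higher in EZH2i (NFKBIE, background 17.5%, a call lost after centring) and 1 was lower (TNF, background 6.53%). NFKBIE and TNF each reached the minimum there only through the tumor where it was higher. BIRC3 was below the minimum in all 3 comparisons. The median log2 change of the 10 genes was 0.45 in CDK2i, with 6 above 0 and 4 below, and 0.59 in EZH2i, with 9 above 0 and 1 below. Between the treated tumors it was 0.44, with 8 above 0 and 2 below, and 66.9% of expressed genes lay above 0. Of all expressed genes 41.9% lay above 0 after CDK2i and 61.5% after EZH2i.

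**Figure D2:**
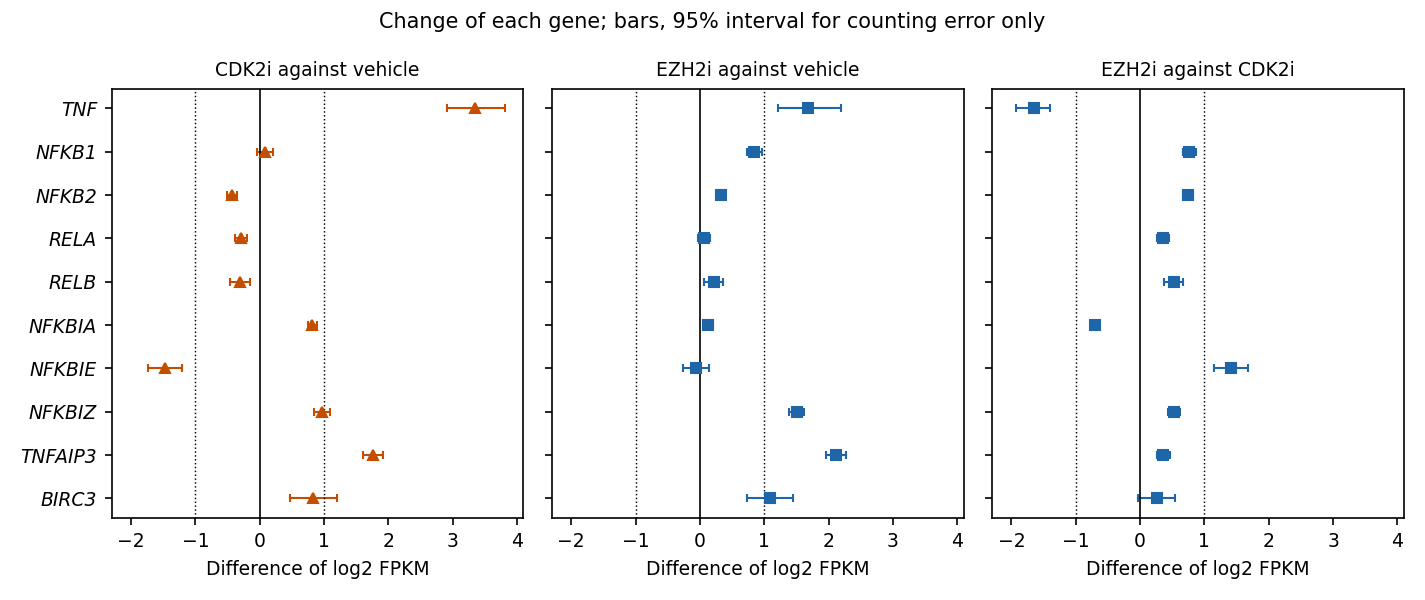
Log2 difference of each of the 10 genes in CDK2i against vehicle, EZH2i against vehicle and EZH2i against CDK2i, with bars for the 95% interval of counting error only. In CDK2i, TNF and TNFAIP3 lay above the 2-fold line and NFKBIE below it, while NFKB1, NFKB2, RELA and RELB lay within it in each comparison.

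With the deposited scaling, the subunit genes NFKB1, NFKB2, RELA and RELB differed by less than 2-fold in each comparison. Other settings took NFKB1 to a log2 change of 1.09 in EZH2i (equal summed FPKM), and NFKB2 to 1.27 and RELB to 1.30 between the treated tumors (trend with GC content and length removed). NFKB1, which encodes the p105 precursor of p50 and lies at chr4:103422487-103538459 (plus strand), was at 8.55 FPKM in vehicle, 9.04 after CDK2i and 15.4 after EZH2i. The vehicle and CDK2i tumors were within counting error of each other (log2 change 0.08, interval −0.04 to 0.20), and EZH2i stood above both (0.85, interval 0.74 to 0.96). NFKB2, which encodes the p100 precursor of p52 in the noncanonical branch and lies at chr10:104153867-104162281 (plus strand), was at 49.2, 36.6 and 61.6 FPKM, with CDK2i lowest and EZH2i highest. Its log2 change was −0.43 after CDK2i and 0.32 after EZH2i. RELA (chr11:65421070-65430561, minus strand), the transactivating partner of p50, was at 36.7, 30.1 and 38.5 FPKM, and its change of 0.07 in EZH2i had an interval of −0.02 to 0.16 that held 0. RELB (chr19:45504719-45541450, plus strand), the partner of p52, was at 18.1, 14.6 and 21.0 FPKM, with changes of −0.31 after CDK2i and 0.21 after EZH2i. With the deposited scaling CDK2i was the lowest of the 3 tumors for NFKB2, RELA and RELB, although none of these differences from vehicle was 2-fold. After each library was centred on its median, RELA was lowest in EZH2i, with changes of −0.18 there and −0.10 in CDK2i. Directly against CDK2i, the EZH2i tumor had log2 differences of 0.77 for NFKB1, 0.75 for NFKB2, 0.35 for RELA and 0.52 for RELB, beside a median of 0.35 over expressed genes. In vehicle, NFKB2 and RELA lay above 88.6% and 84.0% of the expressed genes and RELB above 68.9%, while NFKB1 lay near the middle at 45.9%.

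REL, which encodes c-Rel and is not one of the 10 genes, was the weakest subunit gene, at 1.68, 1.79 and 3.58 FPKM, which is a log2 change of 1.09 in EZH2i at levels below the minimum. The summed level of the 5 subunit genes including REL was 114 FPKM in vehicle, 92.2 after CDK2i and 140.0 after EZH2i. Shares of this sum do not depend on the scaling between libraries, but they do depend on the trend with GC content and length given below. NFKB2 held the largest share in each tumor, with 43.1%, 39.7% and 43.98%. RELA held 32.1% in vehicle, 32.7% after CDK2i and 27.5% after EZH2i, and RELB between 15.0% and 15.9%. NFKB1 made up 7.48% in vehicle, 9.81% after CDK2i and 10.99% after EZH2i, so that the level of NFKB2 was 5.76 times that of NFKB1 in vehicle, 4.05 times in CDK2i and 4.0 times in EZH2i. The EZH2i changes ran with transcript length and GC content across 10200 expressed genes (Spearman correlation 0.45 and −0.57, a description over genes that share the same libraries, against 0.09 and 0.04 for CDK2i). NFKB1 has a long transcript, 7040 bases, with 36.0% GC, and with that trend removed its EZH2i change was 0.20, the lowest value over the settings tried. The NFKB2 transcript has 62.4% GC and that of RELB 64.9%, and their EZH2i changes were then 0.75 and 0.84. NFKB2 then rose more than NFKB1 in EZH2i, so the lower ratio of NFKB2 to NFKB1 in that tumor turned direction. The part of this trend in the subunit genes was not tested.

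**Figure D3:**
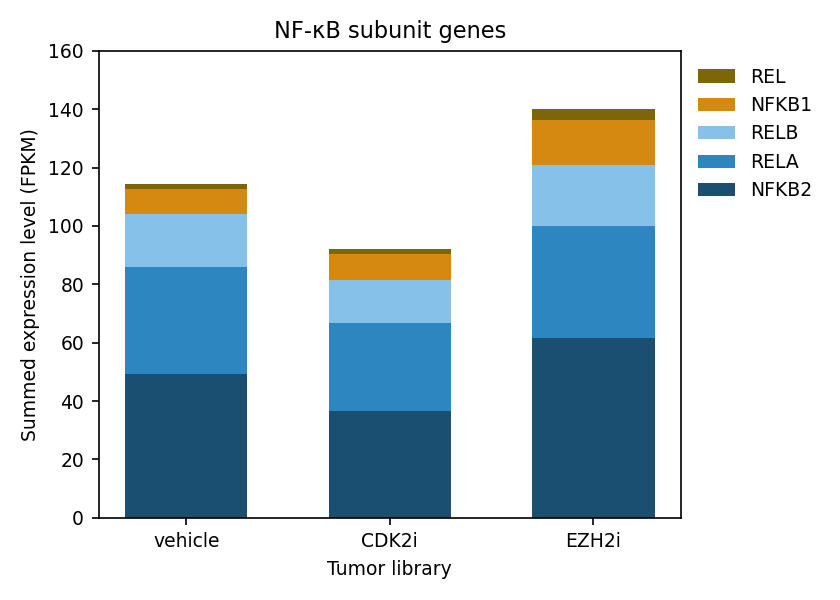
Levels in FPKM of the 5 genes for NF-kB subunits stacked for each tumor, 1 library per bar and no error. NFKB2 and RELA made up most of the sum in each tumor, which was lowest in CDK2i at 92.2 FPKM.

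In CDK2i the genes for the IkB proteins differed from vehicle in opposite directions. NFKBIA (chr14:35870285-35873955, minus strand) encodes IkB-alpha, the main cytoplasmic inhibitor of RELA dimers and an early target of NF-kB. It was at 59.5 FPKM in vehicle, 105 after CDK2i and 64.7 after EZH2i, so that CDK2i stood alone above the other tumors. Its log2 change was 0.82 in CDK2i (interval 0.75 to 0.89, 1.76-fold), inside the 2-fold limit, and 0.12 in EZH2i (interval 0.04 to 0.20). NFKBIE (chr6:44225903-44233525, minus strand) encodes IkB-epsilon, a slower inhibitor of RELA and c-Rel, and was at 9.65 FPKM in vehicle, 3.48 after CDK2i and 9.27 after EZH2i. Here CDK2i stood alone below the others, with a log2 change of −1.47 (interval −1.73 to −1.21), the 195th lowest of 6632 genes tested, and EZH2i did not differ from vehicle beyond counting error (−0.06, interval −0.26 to 0.14). The level of NFKBIA was thus 6.17 times that of NFKBIE in vehicle, 30.2 times in CDK2i and 6.98 times in EZH2i. Between the treated tumors NFKBIE was 2.67-fold higher in EZH2i (log2 difference 1.42, interval 1.15 to 1.68), and NFKBIA had a log2 difference of −0.70 (interval −0.76 to −0.63). After each library was centred on its median, NFKBIE was at 0.98 and no longer past the thresholds, and NFKBIA was at −1.13 and past them, so which IkB gene was counted depended on the scaling.

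NFKBIZ (chr3:101546835-101579866, plus strand) encodes IkB-zeta, an atypical IkB protein of the nucleus that acts with p50 at genes of secondary response. It was at 12.1 FPKM in vehicle, 23.7 after CDK2i and 34.3 after EZH2i, and both treated tumors lay above the vehicle tumor. In EZH2i the log2 change was 1.5 (interval 1.39 to 1.62, 2.84-fold), and in CDK2i it was 0.97 (interval 0.85 to 1.10, 1.96-fold), just inside the fold limit. TNFAIP3 (chr6:138188351-138204451, plus strand) encodes A20, a ubiquitin-editing enzyme that shuts off signaling from the TNF receptor to the IkB kinase. It was at 4.61 FPKM in vehicle, 15.6 after CDK2i and 20.1 after EZH2i, from about 421, 1622 and 1910 fragments. It was 3.39-fold higher in CDK2i (log2 change 1.76, interval 1.6 to 1.92) and 4.35-fold higher in EZH2i (2.12, interval 1.97 to 2.28). These changes ranked 75 among 6632 genes and 38 among 7414, where TNFAIP3 reached the minimum only through the treated tumor. Its difference between the treated tumors was 0.36 (interval 0.27 to 0.46), but −0.07 with each library centred on its median, so its order in the treated tumors depended on the scaling. BIRC3 (chr11:102188215-102210134, plus strand) encodes cIAP2, a ubiquitin ligase at the TNF receptor that limits cell death. It was at 0.849, 1.51 and 1.80 FPKM, lower in vehicle than in either treated tumor, with log2 changes of 0.83 (interval 0.48 to 1.20) and 1.09 (interval 0.74 to 1.45). With the trend over GC content and length removed, its EZH2i change was 0.44. The BIRC3 transcript is long (6877 bases) with 35.8% GC. The interval of its difference between the treated tumors, −0.03 to 0.54, held 0.

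**Figure D4:**
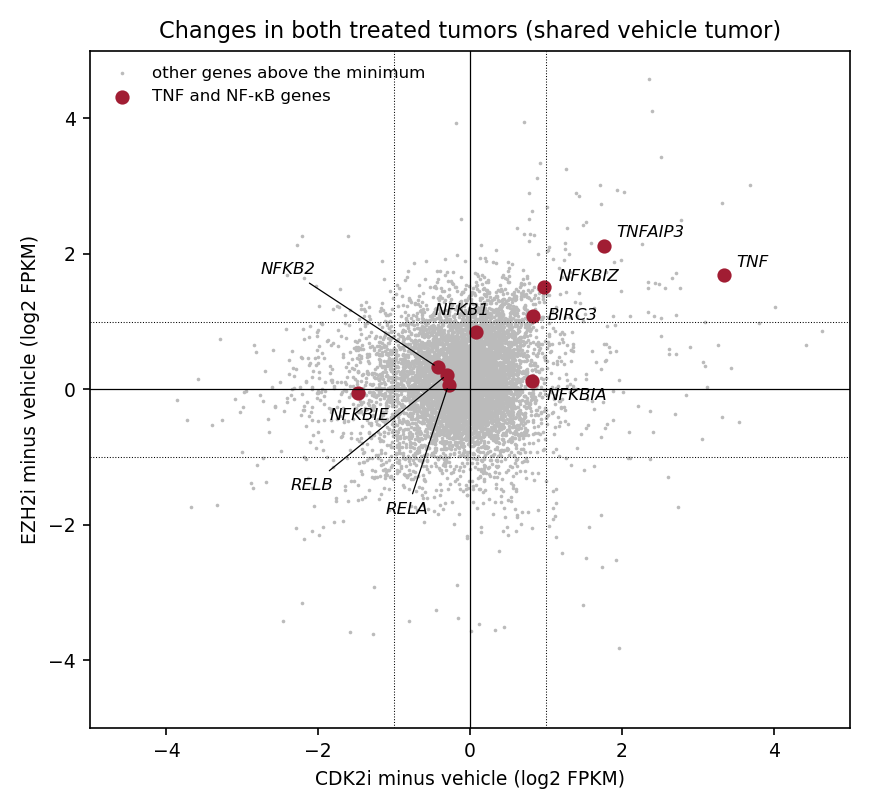
Log2 change in CDK2i (x axis) against log2 change in EZH2i (y axis) for genes above the expression minimum (grey) and the 10 pathway genes (red), with dotted lines at 2-fold and the vehicle tumor shared by both axes. TNF and TNFAIP3 lay beyond the 2-fold line in each treated tumor, whereas the subunit genes lay in the mass of genes around 0.

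Ratios within a tumor do not depend on the scaling between libraries, and RELA served as the common denominator. TNF was at 0.0455 times the level of RELA in vehicle, 0.563 times in CDK2i and 0.140 times in EZH2i. TNFAIP3 was at 0.126 times RELA in vehicle and at nearly equal ratios in the treated tumors, 0.518 and 0.522. NFKBIZ was at 0.329, 0.787 and 0.891 times RELA, and BIRC3 at 0.0231, 0.0501 and 0.0468 times. For TNF, TNFAIP3, NFKBIZ and BIRC3 both treated tumors thus had a higher ratio to RELA than vehicle. The trend with GC content and length does not cancel in such ratios. With it removed, the EZH2i changes of BIRC3 (0.44) and RELA (0.36) were nearly equal, while TNF (2.11), TNFAIP3 (1.89) and NFKBIZ (1.32) stayed above RELA. Between the treated tumors TNFAIP3 was then at 0.11 and RELA at 0.61, so their near equal ratios depended on the trend. For NFKBIA the ratio was 1.62, 3.48 and 1.68, and for NFKBIE 0.263, 0.115 and 0.241, so that CDK2i was the tumor that stood apart in both.

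The promoter sequences of the inhibitor genes TNFAIP3 and NFKBIA, and of BIRC3, are shown so that their letters can be compared for the NF-kB consensus. This consensus is the degenerate binding motif of 10 bases of the p50 and RELA dimer. It was searched as GGGRNWYYCC, where R is A or G, W is A or T, Y is C or T and N is any base. RefSeq promoter windows (table of GRCh38.p14), cut to the 250 bases before each annotated start, were placed by exact match on GRCh37 and searched on both strands. Windows matched 8 of the 10 genes, and RELB and NFKBIE are named only. The consensus was in the windows of 6 of these 8 genes (75%) and in those of 6.28% of 27305 genes overall. By window, it was in 8 of 13 for the members (61.5%) and in 5.21% of 35116 for all genes. A match is a description of letters and neither a bound site nor a cause. The TNFAIP3 window at chr6:138188146-138188395 (plus strand) held 2 matches, shown in capitals, at 67 and 55 bases before the start. The NFKBIA window at chr14:35873956-35874205 (minus strand) held 1 at 81 bases, and the BIRC3 window at chr11:102187965-102188214 (plus strand) held 2 at 199 and 135 bases. All sequences read 5′ to 3′ on the strand of the gene. The matches of TNFAIP3, NFKBIA and BIRC3 lie on the opposite strand, so their capitals read as the reverse complement of the consensus.
TNFAIP3: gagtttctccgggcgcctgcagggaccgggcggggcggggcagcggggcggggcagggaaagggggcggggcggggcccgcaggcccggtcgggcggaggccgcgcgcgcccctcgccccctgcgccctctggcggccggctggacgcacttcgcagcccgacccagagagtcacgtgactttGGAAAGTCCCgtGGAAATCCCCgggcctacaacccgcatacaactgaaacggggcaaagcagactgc
NFKBIA: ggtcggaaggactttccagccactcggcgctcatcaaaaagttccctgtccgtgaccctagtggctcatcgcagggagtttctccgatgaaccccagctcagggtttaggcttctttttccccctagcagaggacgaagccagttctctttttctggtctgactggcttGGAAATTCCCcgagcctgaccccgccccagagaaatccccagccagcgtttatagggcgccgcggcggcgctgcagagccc
BIRC3: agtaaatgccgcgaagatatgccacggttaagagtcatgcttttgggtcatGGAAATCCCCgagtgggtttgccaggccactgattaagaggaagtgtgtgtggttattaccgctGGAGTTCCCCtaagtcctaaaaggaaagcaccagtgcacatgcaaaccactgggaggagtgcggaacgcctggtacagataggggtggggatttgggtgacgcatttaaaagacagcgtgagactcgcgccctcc

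The remaining matches are shown as stretches of 29 or 30 bases with the consensus in capitals, since they let the letters of subunit and inhibitor genes be compared. NFKB1 held 1 match, at chr4:103422457-103422486, and NFKBIZ 1 in each of 2 windows, at chr3:101546601-101546630 and chr3:101568109-101568138. NFKB2 held matches in 2 of its 3 windows, at chr10:104154219-104154247 (overlapping matches on both strands), chr10:104154247-104154276, chr10:104155276-104155305 and chr10:104155431-104155460. NFKB1 and the first NFKBIZ window held the same 10 letters. The matching letters of the TNFAIP3 and BIRC3 windows likewise had one form in common. All of these genes lie on the plus strand.
NFKB1: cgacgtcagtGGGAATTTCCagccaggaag
NFKBIZ window 1: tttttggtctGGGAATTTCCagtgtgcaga
NFKBIZ window 2: gcgcgctgtcGGGGTTTCCCggtgaagggc
NFKB2 window 2, overlapping: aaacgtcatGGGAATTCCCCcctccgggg
NFKB2 window 2: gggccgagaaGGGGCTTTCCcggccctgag
NFKB2 window 3, distal: aacccccaccGGGGCTTCCCggattctcct
NFKB2 window 3, proximal: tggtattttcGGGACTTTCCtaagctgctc

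In the windows of TNF and RELA the letters of the consensus had 0 matches, from which nothing follows about the factor. The TNF window is shown for comparison with those of TNFAIP3, NFKBIA and BIRC3, at chr6:31543092-31543341 on the plus strand of GRCh37.
TNF: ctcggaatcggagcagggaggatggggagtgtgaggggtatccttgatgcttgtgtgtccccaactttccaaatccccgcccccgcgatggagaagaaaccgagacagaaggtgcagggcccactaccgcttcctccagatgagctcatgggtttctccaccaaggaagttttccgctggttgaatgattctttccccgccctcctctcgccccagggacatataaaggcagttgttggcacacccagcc

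The other genes of the pathway were read from lists of receptors, adaptors, kinases, inhibitors and targets. Over all genes tested, 3.27% were higher and 8.07% lower in CDK2i, and 8.93% were higher and 4.42% lower in EZH2i. Of 11 receptor genes 7 were expressed. TNFRSF1A, the main TNF receptor, was at 81.6 FPKM in vehicle, 32.6 after CDK2i and 86.5 after EZH2i, and was the 1 receptor of 5 tested that was past the thresholds in CDK2i (log2 change −1.32). In EZH2i 3 of 6 receptors tested were higher, the death receptor genes TNFRSF10A (1.07), TNFRSF10B (1.02) and TNFRSF21 (1.32). After each library was centred on the median of its expressed genes, TNFRSF21 alone passed. TNFRSF10A was at 7.46 FPKM in vehicle and reached the minimum only through EZH2i. Of 12 adaptor and ligase genes, 1 of 7 tested was past the thresholds in CDK2i and 0 of 8 in EZH2i. This was FADD, the adaptor that links death receptors to caspases, at 12.2 FPKM in vehicle, 1.02 after CDK2i and 13.6 after EZH2i (log2 change −3.58 in CDK2i). FADD and TNFRSF1A were low in the same tumor in which TNF was high.

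Of 11 kinase genes, which include the IkB kinase subunits, 0 of 3 tested were past the thresholds in CDK2i and 2 of 6 in EZH2i. These were MAP3K7 (TAK1, log2 change 1.18) and TBK1 (1.09), both below 8 FPKM in vehicle. Of all genes tested, 8.93% were higher in EZH2i. After centring each library on its median 0 kinases passed. Of 13 other subunit and inhibitor genes, 1 of 8 tested was past the thresholds in CDK2i and 0 of 9 in EZH2i. This was NFKBID, a nuclear IkB gene, at 9.0, 3.48 and 9.74 FPKM (log2 change −1.37 in CDK2i), which like NFKBIE was lowest in CDK2i. REL had a log2 change of 0.09 in CDK2i.

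The 24 listed targets of NF-kB, the member BIRC3 among them, were counted in the same way. This list, like the others, was chosen with earlier results of these data known. Its counts are therefore a description and no independent support. In CDK2i 6 of 14 tested were higher and 1 was lower, beside 3.27% and 8.07% of all genes tested. In EZH2i 10 of 16 were higher and 0 lower, beside 8.93% and 4.42%. The median log2 change of the targets was 0.58 in CDK2i and 1.37 in EZH2i, beside medians over expressed genes of −0.11 and 0.19. CXCL2, IL1B, ICAM1 and PTGS2 were below 8 FPKM in vehicle and reached the minimum only through a treated tumor. Which tumor was highest differed among the targets. CXCL8, a neutrophil chemokine, was at 14.2, 23.3 and 219 FPKM (log2 change 0.71 after CDK2i and 3.94 after EZH2i), and IL1B, the interleukin, was at 5.48, 10.1 and 47.8 FPKM. IER3, a stress response gene, was at 106, 1476 and 209 FPKM, highest in CDK2i as TNF was. Higher in both treated tumors were CXCL2, CXCL3, CCL20, MMP9 and PLAU, with changes of 1.02 to 2.44 in CDK2i and 1.49 to 2.69 in EZH2i. The CDK2i change of CXCL3 (1.02) was the smallest, reached 0.87 over the settings and was then not past the thresholds. CXCL1 (1.73), the adhesion gene ICAM1 (1.37) and the cyclooxygenase gene PTGS2 (1.55) were higher in EZH2i alone by these thresholds. TNFAIP6, a hyaluronan-binding protein gene, was lower in CDK2i (−2.12).

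**Figure D5:**
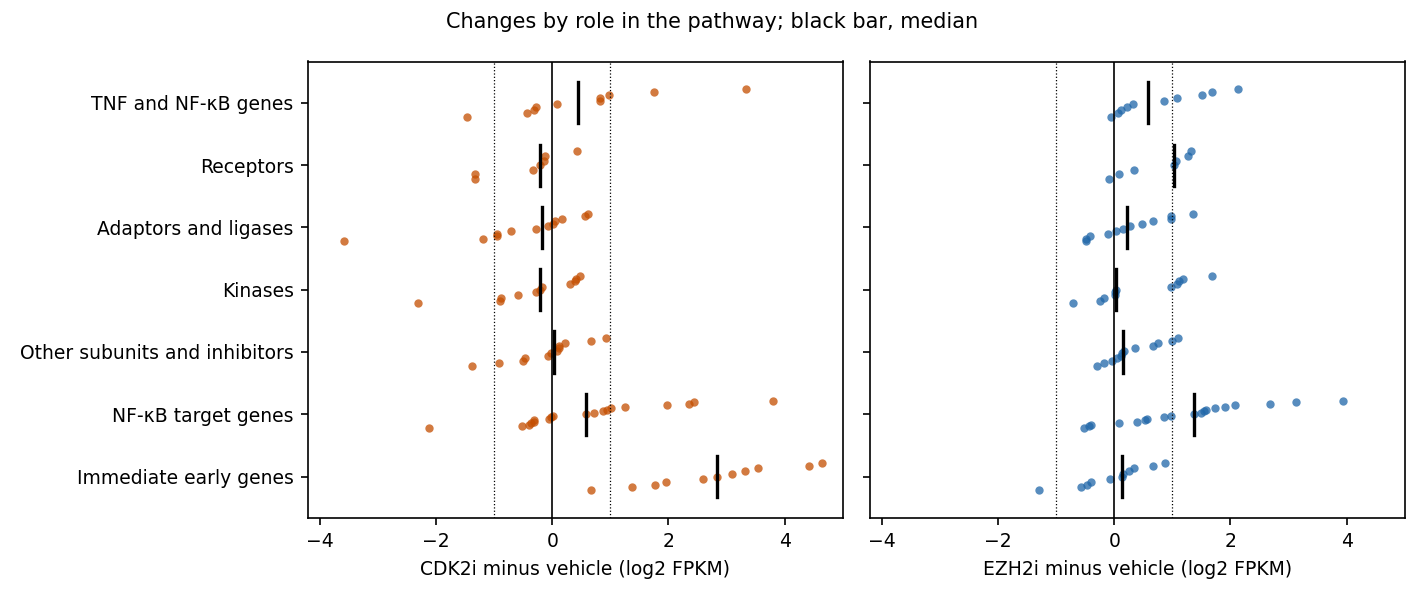
Difference of log2 FPKM from vehicle in CDK2i (left) and EZH2i (right), with 1 point for each expressed gene of a list or member, a black bar at the median and dotted lines at 2-fold. The target genes had medians of 0.58 after CDK2i and 1.37 after EZH2i, and the lists of kinases and adaptors lay nearer to 0.

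The immediate early genes respond within minutes to growth factor and stress signals, and also to tissue handling, and are not NF-kB subunits. They moved with the CDK2i values. Of 12 such genes 11 were expressed, and 10 of 11 tested were higher in CDK2i, where 3.27% of all genes tested were. FOSB and EGR2 were below 8 FPKM in vehicle and reached the minimum only through CDK2i. The summed levels of the 12 genes were 359 FPKM in vehicle, 3283 after CDK2i and 296 after EZH2i. Their sum was thus high in the tumor in which TNF, NFKBIA and IER3 were highest and low in the EZH2i tumor, in which NFKBIZ was highest. Their part in the values of these genes, and that of tissue handling, was not tested. Human CD14, which made up most of the sum of the leukocyte marker list, was at 8.02, 7.95 and 3.15 FPKM, lowest in EZH2i. Human CD68, a macrophage marker, was at 0.0317 FPKM in vehicle and listed at 0 in both treated tumors. Host myeloid cells are mouse cells, so these human values do not measure them, and the cells behind the CD14 level were not tested.

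With other scalings, pseudocounts and removal of the trend with GC content and length, 9 of the 10 genes kept the direction of their change in CDK2i and 6 of 10 in EZH2i. NFKB1 was the exception in CDK2i. In EZH2i the changes of RELA, RELB, NFKBIA and NFKBIE (0.07, 0.21, 0.12 and −0.06) turned direction in at least 1 setting. TNF ranged from 2.75 to 3.53 in CDK2i and from 1.26 to 2.11 in EZH2i over these 6 settings. TNFAIP3 ranged from 1.57 to 1.94 and from 1.87 to 2.36, NFKBIZ in EZH2i from 1.26 to 1.75, and NFKBIE in CDK2i from −1.62 to −1.25. The share of higher genes among all genes past the thresholds was 28.9% after CDK2i and 66.9% after EZH2i with the deposited scaling, and 50.7% and 31.8% after centring.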

How the data were processed

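The deposited table holds log2 FPKM for 29689 gene symbols in 3 libraries, made by the authors from reads aligned to GRCh37/hg19, with −9 for 0. The submitters' processing notes name CASAVA and STAR. Their versions, the counting tool and any pooling are not given in the sources used here. Each column was matched to its sample by the description label. The members and lists were chosen with earlier results of these data known. A gene was tested where the higher value of a pair was above log2 FPKM 3 and was called where the fold was above 2. The study names limma with a p-value for its comparisons, which 1 library per condition does not allow.

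Fragments were approximated from the FPKM, the recovered depth and the longest coding transcript of GENCODE 44 on GRCh37. Intervals are 95% exact (Clopper-Pearson) intervals of a ratio, covering counting error only. A cubic trend with GC content and length was removed as an alternative for the 92.6% of expressed genes with an annotated transcript. Other alternatives were the thresholds, a pseudocount of 0.1 or 1 FPKM, centring on the median gene, and equal summed FPKM with or without ribosomal protein and mitochondrial genes. Named genes were the 10 members, pathway list genes past both thresholds in either treated tumor, REL, and the 5 genes nearest to TNF by the distance between their log2 changes in both treated tumors. The marker and immediate early genes named, and LTA, LTB, TNFSF10, TNFSF11, TNFSF12, TNFSF13B, TNFSF14, TNFSF15, CD40LG, MAP3K14 and CSF2, were chosen after their values were seen. Calculations used Python 3.11.15, numpy 2.4.6, pandas 2.3.3 and scipy 1.17.1, and the recovery of depth and of known changes was tested on simulated data.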

Additional observations from a re-analysis of the deposited data

How the results depend on the processing

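No paired analysis was possible because each condition had 1 library. The number of members past the thresholds was 3 in CDK2i, 2 in EZH2i and 2 in EZH2i against CDK2i. With a fold of 1.5 the first and the third were 5, where 29.4% and 47.7% of all genes tested passed, and with a fold of 3 the second and the third were 1 (2.51% and 8.1%). Without an expression minimum 4 of 10 members passed in EZH2i, near the 36.4% of all genes, and with a minimum of log2 FPKM 5 the counts were 0, 1 and 0, since few members reach that level. Centring made the CDK2i count 5 by adding NFKBIA and NFKBIZ, and equal sums or removal of the trend added NFKBIZ alone (4). Equal sums added NFKB1 in EZH2i (3). Between the treated tumors centring kept the count at 2 with NFKBIA in place of NFKBIE, and removing the trend made the count between the treated tumors 4 by adding NFKB2 and RELB. The median log2 change of the members in CDK2i (0.45) was 0.26 with a pseudocount of 1, 0.63 after centring, 0.60 with equal sums and 0.31 with equal sums without ribosomal protein and mitochondrial genes. In EZH2i (0.59) it was 0.46, 0.34 and 0.83 under the first 3 of these. Between the treated tumors (0.44) it was 0.01 after centring, 0.62 with equal sums without those genes and 0.25 with the trend removed. No median changed sign. Depth limits TNF in vehicle most, at about 47 fragments.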

Other observations

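Of 11 other ligand genes of the TNF superfamily 2 were expressed, TNFSF9 and TNFSF10. TNFSF9, the ligand of 4-1BB, was at 21.5 FPKM in vehicle, 10.9 after CDK2i and 10.6 after EZH2i, with log2 changes of −0.97 and −1.02 (the second past the thresholds, a call lost in 4 of 6 alternatives, with values up to −0.50), and TNFSF10, the TRAIL gene, was at 10.3, 6.10 and 8.74 FPKM. TNFSF9 and TNFSF10 were lower in the treated tumors, in which TNF was higher. Among the weaker ligand genes, 2 were chosen after their values were seen. LTB was at 0.944, 2.37 and 0.945 FPKM, nearly equal in vehicle and EZH2i with the deposited scaling. Its EZH2i change ran from −0.25 to 0.76 over the settings. TNFSF11 was at 0.0271, 0.214 and 0.104 FPKM, in the same order of tumors as TNF at levels near 0. Other weak ligand genes, LTA, TNFSF12, TNFSF14 and TNFSF15, were lower in CDK2i than in vehicle.

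By the distance between log2 changes in both treated tumors, the genes most like TNF among 7571 compared over 3 libraries were SPRR2D (distance 0.61, changes 2.77 and 1.5), HBEGF (0.64, changes 2.71 and 1.72), CTD-2622I13.3 (0.69), SNORD3A (0.74) and IL1R2 (0.80). SPRR2D encodes an epidermal envelope protein, HBEGF a ligand of the EGF receptor and IL1R2 a decoy receptor of interleukin-1.

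MAP3K14, chosen after its values were seen, encodes NIK, the kinase that starts the processing of the NFKB2 product. It was at 4.19 FPKM in vehicle, 0.843 after CDK2i and 4.24 after EZH2i, a log2 change of −2.31 in CDK2i at levels below the expression minimum. CSF2, also chosen in this way, encodes GM-CSF and was at 0.152, 3.60 and 5.91 FPKM, so that a target of NF-kB near 0 in vehicle was higher in both treated tumors.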
